A study of Caenorhabditis elegans with 12 samples.

Results

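The small RNAs complementary to 66 replication-dependent core histone genes of C. elegans were followed here in worms with mutated GLH proteins and in their WT counterparts. The 66 were taken by name, as his- followed by a number, from the 19691 protein-coding genes that have a row of antisense reads in the count table. Of 72 such rows, 6 were left out because they hold the H3.3 variants or the linker histone his-24. By class the members were 17 H2A, 17 H2B, 15 H3 and 16 H4 genes. The gene his-73, with a coding sequence of only 46 residues, was given no class. The classes were set from textbook knowledge, and annotated coding lengths were shared within them, with 103 residues in all 16 H4 genes, 127 in 16 of 17 H2A genes and 1 common length each in all 15 H3 genes and in 11 of 17 H2B genes. The members lay on chromosomes V (26), IV (22), II (14), I (2) and X (2).

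The tested worms, called 3×FG, carried glh-1(allele50[glh-1F>A]), glh-4(allele16[glh-4F>A]) and glh-2(allele49[glh-2 delFG]), which replace or delete the phenylalanine-glycine repeats of 3 germ granule helicases. The worms called WT lacked those alleles. Both strains also carried wago-4(gg620[3xflag::gfp::wago-4]), a tag on the Argonaute at its own locus that was used for its immunoprecipitation (IP), so neither strain had untagged WAGO-4. Whole young adults grown at 20 °C were lysed, and 3 IP libraries and 3 input libraries were sequenced per strain. In whole worms, a change in the number of germ cells and a change in the small RNA per cell cannot be told apart. The study calls the replicates biological and the library names give each its own lysate, but the sources used here do not say whether separate cultures were grown. The p-values describe the spread among these libraries, which may be technical. Counts of small RNAs per gene do not check the introduced alleles.

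Replication-dependent histone genes are expressed when DNA is copied and supply the 4 core proteins, H2A, H2B, H3 and H4, around which DNA is wound in the nucleosome. In C. elegans they exist in many near-identical copies, most without introns, in clusters where an H3 gene and an H4 gene, or an H2A gene and an H2B gene, sit head to head. Their mRNAs are templates for 22G-RNAs, antisense small RNAs made by RNA-dependent RNA polymerases in the germline. The 22G-RNAs are loaded onto Argonautes such as CSR-1, which protects germline transcripts and has been linked to histone mRNA maturation, and WAGO-4, which carries inherited RNA interference signals.

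The 6 input libraries held 2072770 to 74846970 reads on annotated features, and the smallest were WT inputs 1 (2072770) and 2 (4899458). These were also the only libraries labelled batch A, while the 3 3×FG inputs, WT input 3 and all IPs were batch B. Reads from the sense strand of the core histone genes followed this label. In RPM, the reads on a gene scaled to a common total of feature reads per library, they amounted to 185 to 213 in the 3×FG inputs and 264 in WT input 3, but to 16.4 and 18.6 in WT inputs 1 and 2. The share of ribosomal RNA in all counted reads, those on no feature included, moved with it. It was 15.2% to 19.3% in the 3×FG inputs, 20.1% in WT input 3, and 3.18% and 4.95% in the batch A inputs. Antisense reads did not split this way in RPM, since the 3 WT inputs lay between 248 and 267. As a share of all reads antisense to protein-coding genes they did differ by batch. That share was 0.0659% and 0.0666% in the batch A inputs and 0.0800% in WT input 3. Whether RNA quality had a part in any difference below was not tested, and results from batch B inputs alone are given where they bear on a call. That batch holds only 1 WT input, assumed to vary like the 3×FG inputs, so these results set 3×FG against that single library. The IP tables hold RPM as deposited, for targets only, so the depth behind an IP value is unknown.

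**Figure D1:**
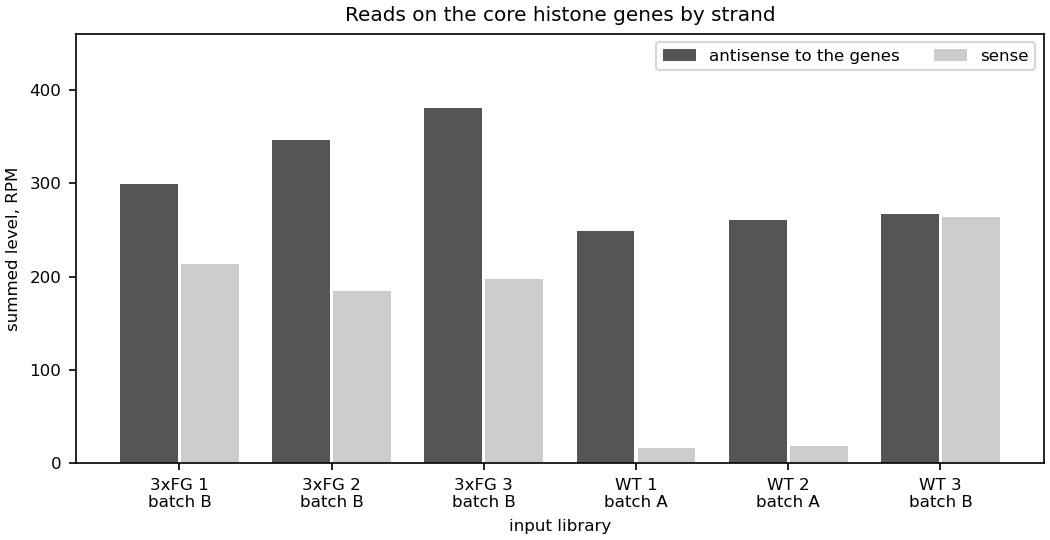
Summed RPM (y axis) on the core histone genes in each input library (x axis), with antisense reads in dark and sense reads in light bars. Sense reads stand at 16.4 and 18.6 in the 2 batch A WT inputs and at 185 or more in the 4 batch B inputs, while antisense reads stay between 248 and 381.

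Many copies cannot be told apart in these data. Among the 64 members with any antisense read, 35 fell into 14 sets whose counts were identical in all 6 inputs, which leaves 43 distinct patterns. The largest sets were his-19/his-21/his-51/his-53, 4 H2A genes, and his-20/his-22/his-52/his-54, 4 H2B genes. A set is named with a slash and its value is given once, as the same reads appear to stand in each row. How reads that match several copies were assigned is not given in the sources used here, and some copies with equal counts in several libraries differed sharply in others.

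The H2A genes his-16 and his-12/his-43 show this most clearly. In the 3×FG inputs his-16 had 608, 403 and 22 antisense reads and his-12/his-43 had 0, 0 and 22. In the WT inputs his-16 and his-12/his-43 had the same counts, 3, 4 and 21. Taken alone, his-16 had a log2 fold change of 2.43 ± 0.69 (SE) and his-12/his-43 one of -1.55 ± 1.88. Where rows hold equal counts the same reads may stand in each of them, so no sum over the 3 rows is given. The H3 gene his-17 and its partner set his-27/his-49 followed the same pattern, with 24, 66 and 30 against 24, 0 and 0 reads in the 3×FG inputs and identical counts of 3, 1 and 3 in the WT inputs. Levels of single copies are therefore read below beside the sums over their class.

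In the inputs, the core histone genes together had 299.5, 346.7 and 381.0 antisense RPM in 3×FG, against 248.5, 260.8 and 267.2 in WT. The lowest 3×FG library lay above the highest WT library, and the log2 ratio of the means was 0.40. Scaled by library totals as well, all 22301 features tested had a median log2 fold change of 0.35. Of these features, 24% lay wholly above WT, so the summed rise was close to that of all features. The core histone genes took 0.0886% to 0.0957% of all reads antisense to protein-coding genes in 3×FG. In WT they took 0.0659% and 0.0666% in the batch A inputs and 0.0800% in the batch B input. Levels per gene spread widely within this sum. The 5 highest members by mean input level were his-62 (H2B), his-64 (H4), his-63 (H3), his-37 (H4) and his-59 (H3). The H2B gene his-62 led with 28.9, 31.3 and 37.6 RPM in 3×FG and 22.2, 23.1 and 16.2 in WT. At the other end, his-5 (H4) had 1 read in WT input 1 and 0 in the other 5 inputs, his-39 (H2B, annotated with 67 residues) had 33, 0 and 3 reads in 3×FG and 0 in WT, and his-20/his-22/his-52/his-54 had 0, 0 and 8 reads in 3×FG and 0, 3 and 0 in WT. No read was counted for his-35 (H2A) or his-73. A count of 0 allows up to 3 reads, which is 0.0401 RPM in the deepest library and 1.45 in the shallowest, for counting error only.

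**Figure D2:**
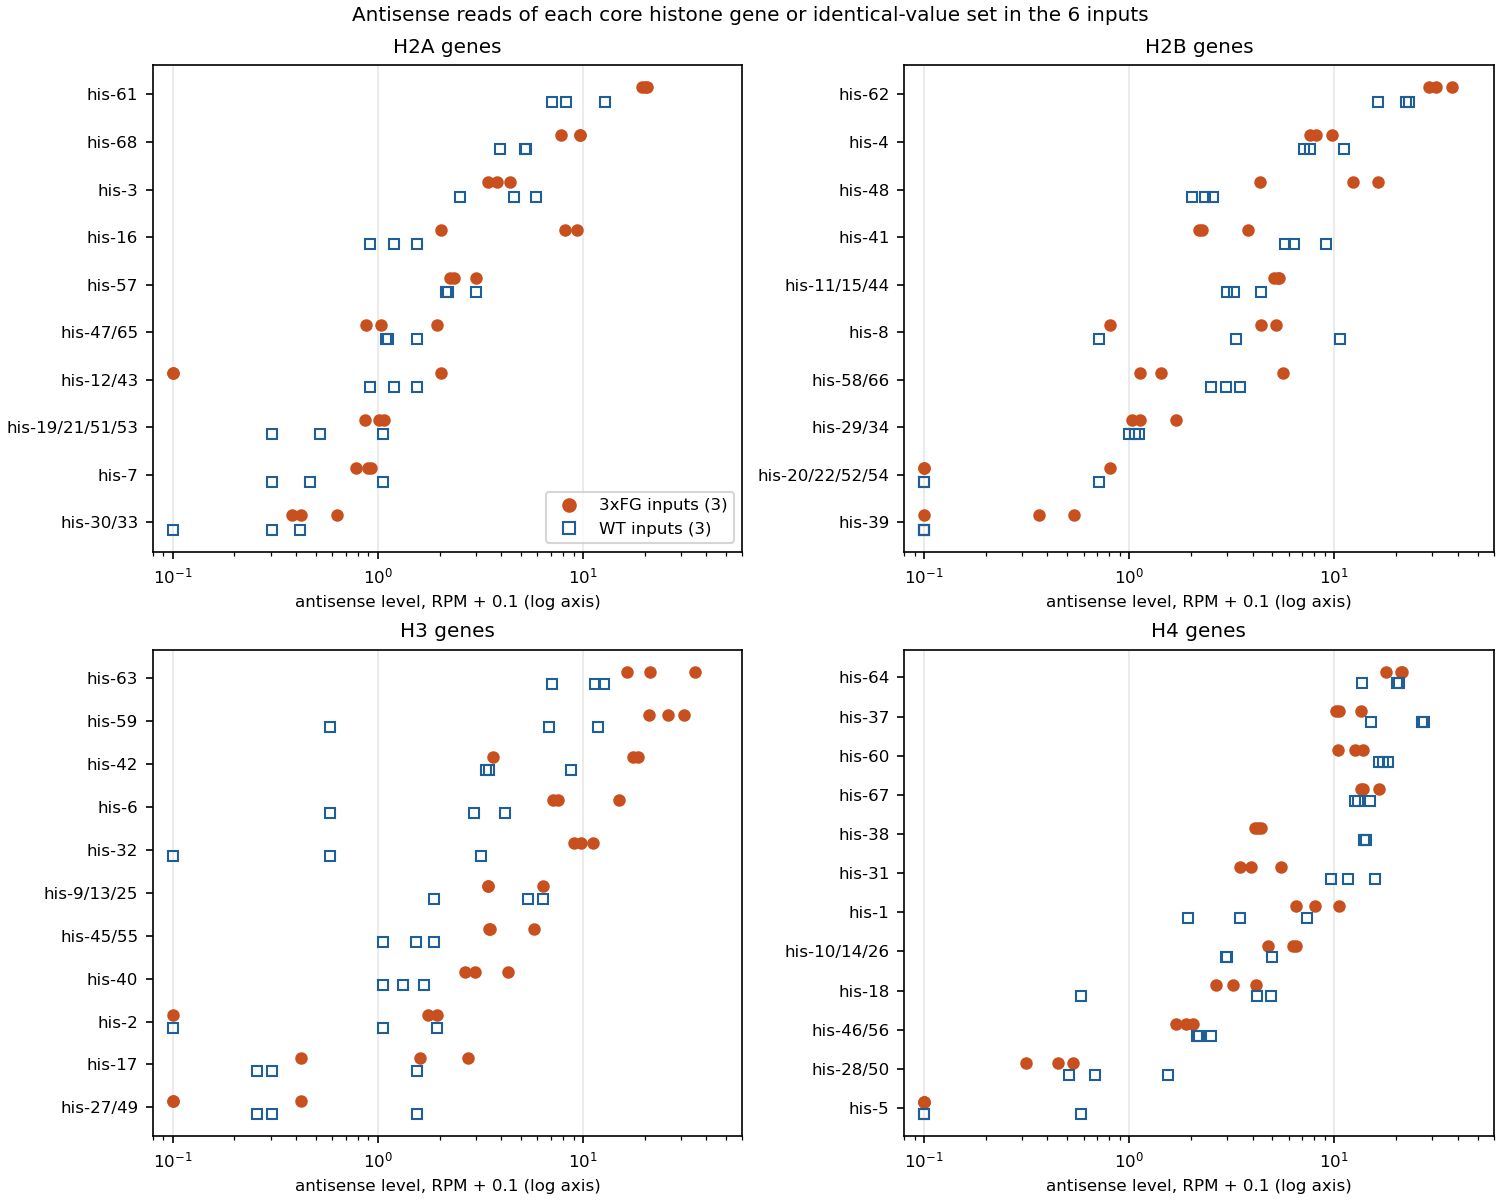
Antisense RPM plus 0.1 (x axis, log scale) for each core histone gene or set of identical copies (y axis), by class. Filled circles are the 3 3×FG inputs and open squares the 3 WT inputs, and most H3 genes have their circles to the right of their squares while his-60, his-37, his-38 and his-31 among the H4 genes have them to the left.

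Of the 66 members, 52 (78.8%) passed the filter on low counts, as did 55.2% of all genes with an antisense row. The 52 form 37 distinct patterns, and their median log2 fold change was 0.38, beside 0.18 over all 22301 features tested. Calls required more than a doubling or halving (1 log2 unit) together with an adjusted p below 0.01 (edgeR quasi-likelihood test, Benjamini-Hochberg adjustment over all features). In the inputs 0 members were called higher in 3×FG, where 0.839% of all features and 1.51% of those antisense to coding genes were, and 1 was called lower, where 2.04% and 3.06% were. At an unadjusted p under 0.05, 11 members were higher and 5 lower, beside 11% and 14.7% of all features. The 11 count the identical copies his-45/his-55 once per gene. DESeq2, run on the same counts without this filter, gave a p-value for 64 members and 60441 features. It called 1 member higher (his-48) and 4 lower (his-31, his-37, his-38 and his-41), beside 987 and 1518 of all features.

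The called gene was his-38, an H4 copy on chromosome X. It had 4.03, 4.14 and 4.32 RPM in the 3×FG inputs, against 13.99, 13.88 and 14.15 in the WT inputs. The levels lay close together within each strain and far apart between them, with a log2 fold change of -1.94 ± 0.24 (edgeR, adjusted p = 0.00497). With the 4 batch B inputs alone, of which 1 is WT, it was -1.86. The size hardly moved when any 1 library was left out (-1.93 to -1.84), but the adjusted p rose above 0.01 for each library except WT input 3, up to 0.0476. It also did so without the filter on low counts (-1.66, edgeR adjusted p = 0.0190).

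Other H4 genes had lower levels in 3×FG without passing the test. His-31 had 3.37, 3.82 and 5.38 RPM in 3×FG and 11.6, 15.7 and 9.52 in WT (log2 fold change -1.77 ± 0.34, edgeR adjusted p = 0.0234). His-37, an H4 gene with an intron, had 10.4, 10.1 and 13.4 in 3×FG and 15.0, 27.4 and 26.7 in WT. Its log2 fold change of -1.24 ± 0.28 was -1.35 with batch B inputs alone. The abundant his-60 had 10.4, 12.6 and 13.7 in 3×FG and 16.4, 17.1 and 18.1 in WT (-0.70 ± 0.20, edgeR adjusted p = 0.0756). In each of these genes the highest 3×FG library lay below the lowest WT library, as it did for 12.9% of all features tested. His-37 lies on chromosome V in a short stretch with the H2B gene his-41 and the H2A gene his-35, which are annotated with introns as well. His-41 stood at 2.18, 2.10 and 3.70 RPM in 3×FG and 6.27, 8.98 and 5.68 in WT, also with no overlap (-1.62 ± 0.39, edgeR adjusted p = 0.0470).

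H3 genes mostly had higher levels in 3×FG. His-59 had 20.9, 25.9 and 31.04 RPM in 3×FG, against 0.482, 6.74 and 11.8 in WT. The lowest of these WT values is a single read in WT input 1. The log2 fold change was 1.74 ± 0.68 (edgeR, adjusted p = 0.164). His-63 had 16.3, 21.1 and 35.1 in 3×FG and 12.5, 6.94 and 11.4 in WT (1.04 ± 0.34, edgeR adjusted p = 0.101), and his-45/his-55 had 3.39, 3.43 and 5.64 in 3×FG and 0.965, 1.43 and 1.79 in WT (1.29 ± 0.41, edgeR adjusted p = 0.0962). For his-32 the values were 9.71, 8.96 and 11.1 in 3×FG, against 0.482, 0 and 3.10 in WT (2.61 ± 0.91, edgeR adjusted p = 0.127), and with batch B inputs alone the log2 fold change was 1.57, against the 1 WT input with the highest value. Each of these H3 genes lay wholly above WT, as did 24% of all features tested. None of them passed the test over the 6 inputs.

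Among H2A and H2B genes the picture was mixed. His-61 (H2A) had 19.4, 20.1 and 20.5 RPM in 3×FG and 8.20, 6.94 and 12.7 in WT (0.91 ± 0.25, edgeR adjusted p = 0.0665). His-48 (H2B) had 12.3, 16.2 and 4.23 in 3×FG and 1.93, 2.25 and 2.47 in WT (2.12 ± 0.56, edgeR adjusted p = 0.0593). In 3×FG inputs 1 and 2 it had 918 and 711 reads, against 100 and 45 in the H2B set his-58/his-66. The counts lay closer in 3×FG input 3 (48 against 63) and in WT (4, 11 and 47 against 5, 14 and 64). Whether reads were assigned differently between these copies was not tested. His-68 (H2A) had 7.71, 9.55 and 9.61 RPM in 3×FG and 3.86, 5.10 and 5.15 in WT (0.72 ± 0.28, edgeR adjusted p = 0.168). The H2B set his-11/his-15/his-44 had 4.997, 5.23 and 5.29 in 3×FG and 2.89, 4.29 and 3.16 in WT, and neither overlapped between the strains. Over the 52 tested members, 15 lay wholly above WT and 7 wholly below it, that is 28.8% and 13.5% of them, while the same held for 24% and 12.9% of all features tested. By class, 7 of 13 H3, 5 of 12 H2B, 3 of 14 H2A and 0 of 13 H4 genes lay wholly above, and 6 H4 genes and 1 H2B gene lay wholly below. These counts take identical copies once per gene. They repeat his-11/his-15/his-44 among the H2B and his-45/his-55 among the H3 genes above, and his-46/his-56 among the H4 genes below.

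The other members listed as WAGO-4 targets were not called in the inputs either. His-64 (H4) had 17.7, 21.0 and 21.4 RPM in 3×FG and 13.5, 20.2 and 20.7 in WT. His-10/his-14/his-26 (H4) had 4.64, 6.42 and 6.17 in 3×FG and 2.89, 2.86 and 4.89 in WT. His-57 (H2A) had 2.26, 2.15 and 2.91 in 3×FG and 2.89, 2.04 and 2.10 in WT. These 3 overlapped between the strains, as did his-1 (H4), with 6.44, 10.5 and 7.94 in 3×FG and 3.38, 1.84 and 7.26 in WT, and his-42 (H3), with 3.53, 17.4 and 18.5 in 3×FG and 3.38, 3.27 and 8.68 in WT. The set his-46/his-56 (H4) was lower without overlap, at 1.80, 1.60 and 1.94 in 3×FG and 2.41, 2.04 and 2.10 in WT, a log2 fold change of -0.46 ± 0.36 (edgeR, adjusted p = 0.499).

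The contrast between H3 and H4 was seen most simply in the sums over each class, in which a read that stands in several rows is counted once per row. H3 genes together had 88.7, 105 and 137 antisense RPM in 3×FG, against 44.4, 42.2 and 50.0 in WT. H4 genes together had 87.2, 106 and 105 in 3×FG, against 104, 129 and 134 in WT. The H3 sums of the 2 strains were far apart and the H4 sums overlapped. With each set of identical copies counted once, the H4 sums were 75.9, 91.0 and 90.6 in 3×FG and 94.1, 120.4 and 121.9 in WT, and no longer overlapped. The H3 sums counted in this way were 72.4, 95.2 and 124.8 in 3×FG and 29.4, 30.0 and 44.4 in WT. The H2A sum was 50.3 ± 2.08 in 3×FG and 29.2 ± 4.27 in WT, and the H2B sum was 82.3 ± 5.91 in 3×FG and 61.9 ± 8.14 in WT (SD, n = 3 each), neither with overlap.

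The ratio of the H3 sum to the H4 sum within a library is free of any scaling between libraries. Its log2 was 0.03, -0.01 and 0.38 in the 3×FG inputs, against -1.22, -1.61 and -1.43 in the WT inputs. H3 and H4 antisense reads were thus about equal in 3×FG, while H4 reads outnumbered H3 reads in all 3 WT inputs. The mean log2 ratio was 0.13 ± 0.22 in 3×FG and -1.42 ± 0.19 in WT (SD, n = 3 each), a difference of 1.55, with no test because the members were grouped after their values were known. The batch B libraries alone, with 1 WT input, gave 1.56. Counting each set of identical copies once gave 1.87. Keeping the 7 H3 and 9 H4 genes with no copy of equal counts in 3 or more inputs gave 2.13. Those genes may still share reads with other copies.

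**Figure D3:**
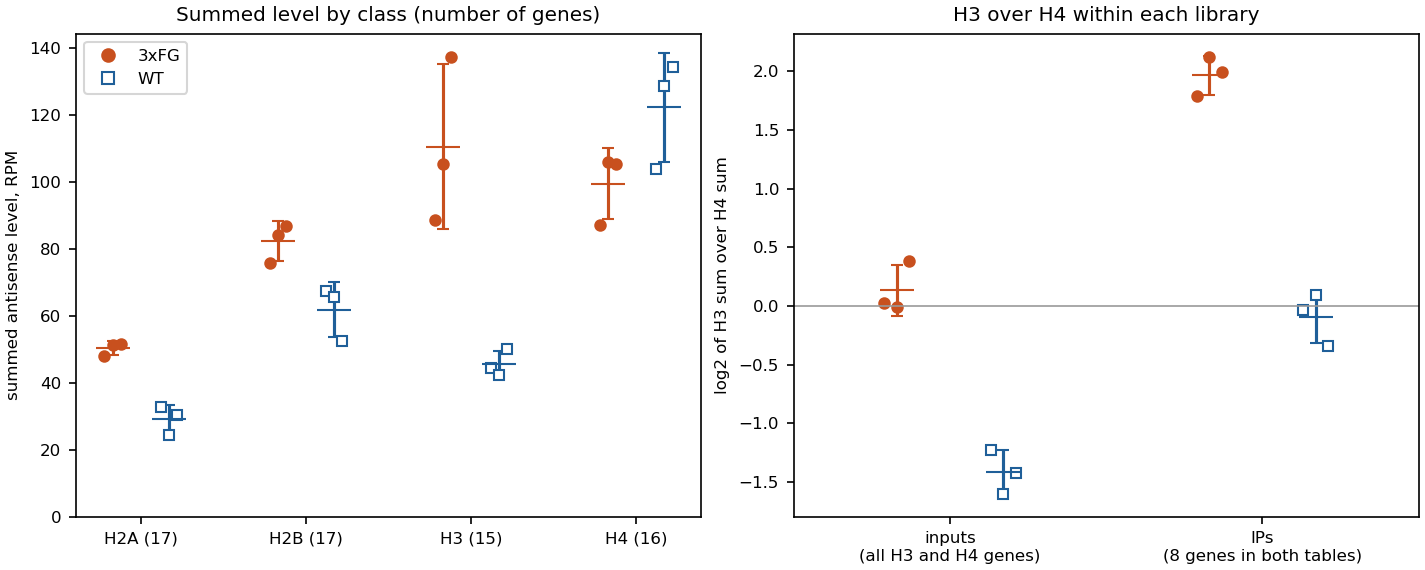
Left, summed antisense RPM (y axis) of the genes of each histone class in the 6 inputs. Right, log2 of the H3 sum over the H4 sum within each library, for all H3 and H4 genes in the inputs and for the 8 of them listed as targets of both strains in the IPs. Filled circles are 3×FG and open squares WT, 3 libraries each, with the mean and SD as a line and bar. On the right, within the inputs and within the IPs, every 3×FG library lies above every WT library, at 0.13 against -1.42 on average in the inputs and 1.97 against -0.09 in the IPs.

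Because H3 and H4 genes sit side by side, the difference could be read between direct neighbours. The annotation (WBcel235) places 14 H3 genes within 1000 bases of an H4 gene, all in head-to-head orientation with 234 to 321 bases between them. For 11 of these pairs, which make 8 distinct patterns, both genes were tested. The H3 gene had the higher log2 fold change in 6 of the 8, and in those 6 the H3 value was above 0 and the H4 value below it. These pairs were singled out after their values were seen. The H3 minus H4 difference ranged from -0.64 to 4.38 with a median of 1.93. The ratio of H3 to H4 counts within each library lay wholly above WT in 4 of the 8 patterns. It overlapped for his-17 with his-18 and for his-63 with his-64, as in the pairs without opposite signs. The H4 values there were near 0, at -0.23 ± 0.62 for his-18 and -0.06 ± 0.22 for his-64 (SE). For his-17, the counts also differed sharply from those of his-27/his-49 in some libraries, as given above.

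At chrX:7309564-7310520, his-40 (H3) had 2.89, 4.20 and 2.56 RPM in 3×FG and 0.965, 1.22 and 1.58 in WT, while its neighbour was the called his-38. At chrIV:8333672-8334715, his-32 and his-31 formed the pair with the widest difference, at 2.61 and -1.77. At chrIV:7487681-7488659, his-59 stood at 1.74 and his-60 at -0.70. The pairs without this pattern were his-2 with his-1 on chromosome V and the sets his-9/his-13/his-25 with his-10/his-14/his-26 on chromosome II. With batch B inputs alone, against 1 WT library, the H3 gene had the higher fold in 8 of 8 patterns.

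**Figure D4:**
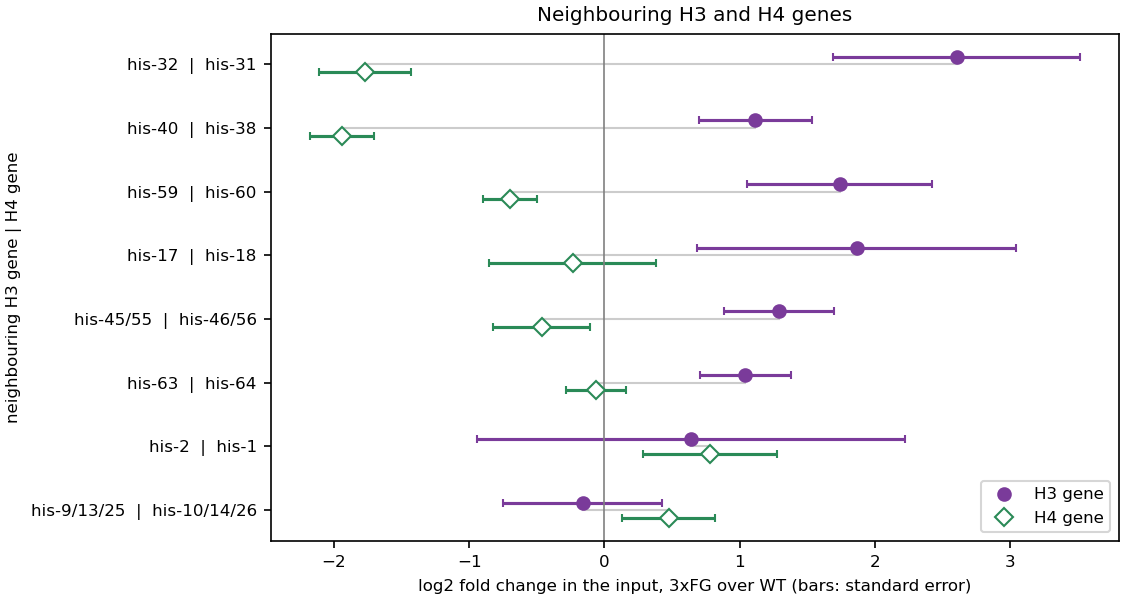
Log2 fold change of antisense reads in the inputs, 3×FG over WT (x axis), for the H3 gene (filled circle) and the H4 gene (open diamond) of each of 8 distinct neighbouring pairs (y axis), with standard errors from edgeR as bars. In the 6 upper pairs the H3 gene lies above 0 and the H4 gene below, and in the 2 lower pairs the error bars of the genes overlap.

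The target tables list features that reached 5 RPM in every IP of the strain and were enriched there 2-fold or more over the paired input. The 3×FG table held 20 of the 66 members (30.3%) and 21 (31.8%) were in the WT table, where 20.7% and 24% of all 19691 genes with an antisense row were listed. Both tables held 16 members (24.2%, beside 20.3% of all such genes), which form 11 distinct patterns. The 5 members listed for WT only were his-1, his-42, his-46/his-56 and his-64, of which 4 are H4 genes and his-42 is an H3 gene. The 4 listed for 3×FG only were his-12/his-43 (H2A) and his-29/his-34 (H2B).

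Values of the members in 1 table stand for that strain alone, as values in the other strain were not used here. In the WT IPs his-64 had 72.3, 73.7 and 66.7 RPM, the highest of them, with IP/input ratios of 5.77, 4.03 and 3.48. His-1 had 16.2, 16.2 and 13.4 RPM, his-42 had 24.6, 5.56 and 19.6 RPM, and his-46/his-56 had 7.04, 9.11 and 9.74 RPM. In the 3×FG IPs his-12/his-43 had 8.02, 6.15 and 7.92 RPM, and the corresponding inputs were at the offset of 0.01 RPM in replicates 1 and 2, so that the ratio means little. His-29/his-34 had 6.44, 6.72 and 6.34 RPM, close to the threshold of 5.

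Within the WAGO-4 IPs, the 4 H3 genes listed for both strains had higher levels in 3×FG. The H3 gene his-42, listed for WT only, could not be compared. His-45/his-55 had 21.8, 21.0 and 26.4 RPM in the 3×FG IPs, against 5.58, 5.95 and 8.89 RPM in the WT IPs. This was a log2 fold change of 1.64 ± 0.18 on the log2(RPM + 1) scale (limma, adjusted p = 5.8e-05). His-63 had 100.2, 124.5 and 128.2 RPM in 3×FG and 62.5, 58.9 and 49.4 RPM in WT (1.03 ± 0.13, limma adjusted p = 0.000153). Its log2 fold change stayed just above or below the limit of 1 as single IPs were left out (0.94 to 1.14) and was 0.98 with a pseudocount of 5 RPM. His-59 had 87.4, 97.8 and 105.6 RPM in 3×FG and 57.2, 59.8 and 47.7 RPM in WT (0.81 ± 0.12, limma adjusted p = 0.00038), which did not reach the limit.

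The H4 gene his-60, the head-to-head neighbour of his-59, showed the reverse. It had 41.4, 28.5 and 38.6 RPM in the 3×FG IPs, against 91.7, 82.4 and 113 RPM in the WT IPs. No library overlapped, where 51.7% of the 4080 features lay wholly below WT and 17% wholly above, with a log2 fold change of -1.39 ± 0.17 (limma, adjusted p = 0.00011), and the call held for each IP left out in turn (-1.49 to -1.23). The H4 set his-10/his-14/his-26 had 8.48, 10.8 and 11.1 RPM in 3×FG and 14.1, 13.3 and 10.8 RPM in WT, which overlapped (-0.30 ± 0.15, limma adjusted p = 0.112).

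Members of H2A and H2B had higher or similar levels. The most abundant, his-62 (H2B), had 222, 222 and 230 RPM in the 3×FG IPs and 148, 159 and 104 RPM in the WT IPs (0.73 ± 0.15, limma adjusted p = 0.00253). His-48 and his-11/his-15/his-44 (H2B) and his-61 (H2A) had log2 fold changes of 0.85, 0.67 and 0.81 with an adjusted p under 0.01 in limma. His-68 (H2A) had 30.7, 31.3 and 33.2 RPM in 3×FG and 28.1, 28.1 and 27.6 RPM in WT (0.18 ± 0.10, limma adjusted p = 0.144), and his-57, an H2A gene with introns, had 5.52, 6.82 and 7.56 RPM in 3×FG and 5.54, 6.09 and 5.09 RPM in WT (0.21 ± 0.15, limma adjusted p = 0.251).

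Counted over the 16 members in both tables, 3 were called higher in the 3×FG IPs (his-63 and the identical copies his-45 and his-55) and 1 lower (his-60), while 0.613% of the 4080 features in both tables were called higher and 19.7% lower. With an adjusted p under 0.01 alone the members were 10 higher and 1 lower, against 8.55% and 40.5% of all features. The 10 count the identical copies his-11/his-15/his-44 and his-45/his-55 once per gene, so they are not independent. Their median log2 fold change was 0.67, and that of all features was -0.30. TMM scaling of the RPM moved the median of all features to 0.01. It raised the members called higher to 7, with his-48, his-59, his-61 and his-62 added, and left his-60 the 1 called lower (-1.07, limma adjusted p = 0.00168).

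Summed per class over these 16 members, H3 genes had 261 ± 27.9 RPM in the 3×FG IPs and 125 ± 9.17 in the WT IPs, and H4 genes had 66.5 ± 5.58 in the 3×FG IPs and 134 ± 11.6 in the WT IPs (SD, n = 3 each). The H4 sum holds only 2 distinct patterns, his-60 and the set his-10/his-14/his-26, which is counted once per copy and overlapped between the strains. The H4 genes his-1, his-46/his-56 and his-64, listed for WT only, are not in it. The H3 over H4 log2 ratio was 1.79, 2.12 and 1.99 in the 3×FG IPs, against -0.03, 0.09 and -0.34 in the WT IPs. In the inputs of the same tables the ratio over the same 8 genes was 0.93, 0.81 and 1.31 in 3×FG and -0.68, -0.66 and -0.23 in WT. All 3 IPs and all 3 inputs of 3×FG had ratios above those of WT. The 3 IPs and 3 inputs of a strain came from the same lysates and are not independent of each other.

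**Figure D5:**
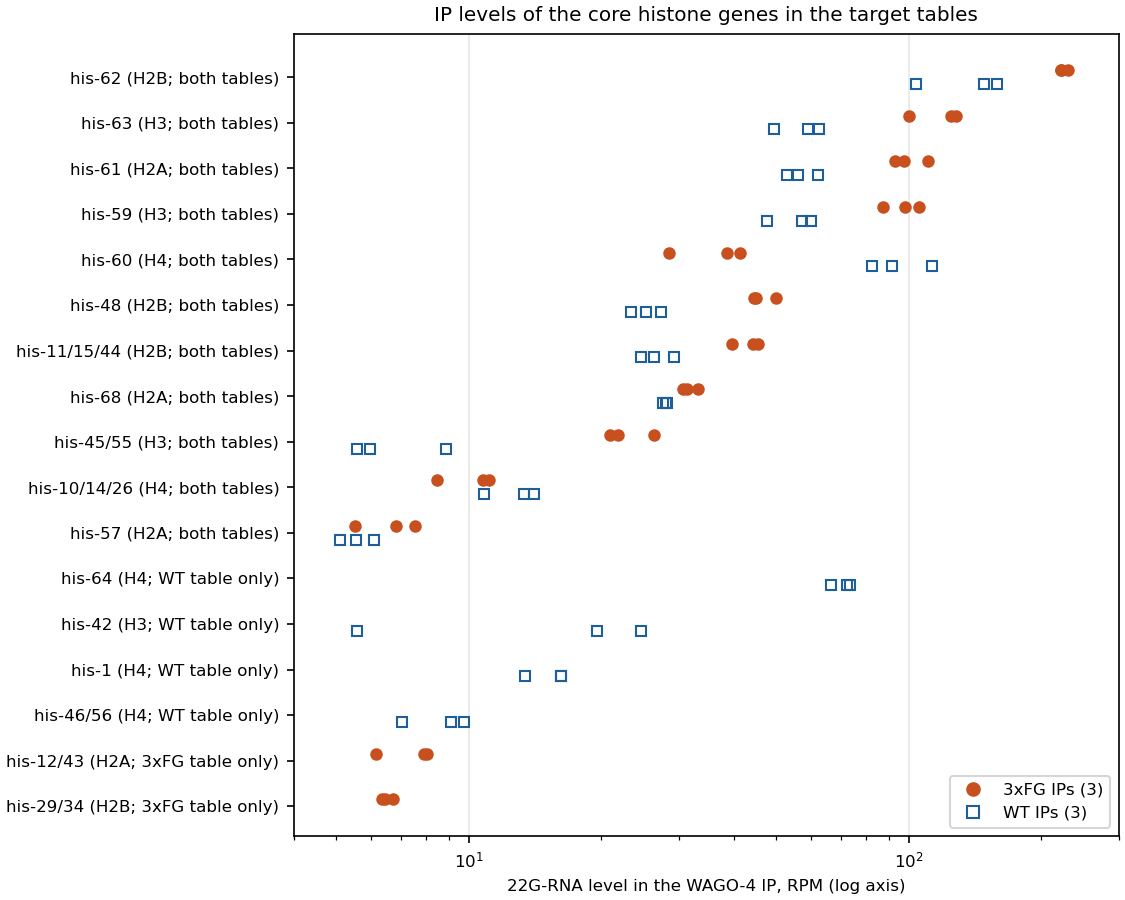
RPM of 22G-RNAs in the WAGO-4 IPs (x axis, log scale) for each core histone gene or set of identical copies listed in a target table (y axis, with its class and table). Filled circles are the 3 3×FG IPs and open squares the 3 WT IPs. Circles lie right of squares for his-45/his-55, his-63 and his-59, and left of them for his-60.

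Differences in the IP relative to the input were smaller. IP/input ratios of the listed members had a median of 6.99, 6.70 and 4.43 in the 3 3×FG pairs, against 6.10, 5.60 and 5.10 in the 3 WT pairs, whereas over all listed features the medians were 6.15, 6.02 and 4.32 in 3×FG and 10.2, 8.57 and 7.33 in WT. The median member thus ranked above 52.9% to 61.3% of listed features in 3×FG and above 18.4% to 21.1% in WT. These ranks are not like for like, being those of 20 members among 4185 features in 3×FG and 21 among 4850 in WT. Identical copies count once per gene in them. WT pairs 1 and 2 also set a batch B IP over a batch A input, while all 3×FG pairs lay within batch B. In an interaction test over all 12 libraries, 0 of 16 members were called in either direction, where 0.245% of the 4080 features were called higher and 24.1% lower (limma). At an unadjusted p under 0.05, 2 members were higher and 7 lower, beside 0.956% and 58.7% of all features. The 2 are the identical copies his-45 and his-55, and the 7 count his-10/his-14/his-26 once per gene. The median change was -0.21 for the members and -0.67 for all features. No other tool was run on these values.

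His-60 was the only one of the 16 members with an adjusted p under 0.01 in this test, a level that 0.27% of features reached upwards and 30.9% downwards. Its IP/input ratios were 4.54, 2.56 and 3.18 in 3×FG and 6.59, 5.51 and 7.02 in WT, which did not overlap, where 57.3% of all features had ratios wholly below WT. In WT only the ratio of 7.02 came from a pair within batch B, as all 3×FG ratios did. The other WT ratios set a batch B IP over a batch A input. The change was -0.94 ± 0.27 (limma, adjusted p = 0.00624), short of the fold limit, and it was -0.14 (limma, adjusted p = 0.713) after TMM scaling, which moved the median of all features to 0.05. His-59 had the largest decrease among the members, -1.58 ± 0.55 (limma, adjusted p = 0.0184), and was called lower when IP and input of 1 lysate were paired (-1.58, limma adjusted p = 0.00062). That value rests on the single read in WT input 1, where the ratio was 227, beside 10.7 and 4.79 in the other WT pairs and 4.71, 4.41 and 3.81 in 3×FG. It was -0.63 without WT replicate 1 and -0.29 with the batch B input for all WT IPs.

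Genes related to histone supply were counted for comparison. Of 14 genes for histone mRNA processing, chaperones and histone acetylation, 0 were called in the inputs, 2 were called lower in the IPs, beside 19.7% of all features, and 5 lower in IP over input, beside 24.1% of all features, among them cdl-1, which encodes the stem-loop binding protein of replication-dependent histone mRNAs (-1.34 ± 0.30 in IP over input, limma adjusted p = 0.0008). Of 5 genes that make or carry CSR-1 22G-RNAs, 4 were tested in the inputs with 0 called, and 3 in the IPs. Of those 3, only ekl-1 was called lower, both in the IPs and in IP over input (-1.28 ± 0.11 and -1.20 ± 0.26, limma adjusted p = 1.9e-05 and 0.00069). The replication-independent H3.3 genes had a median log2 fold change of 1.06 over the 4 tested in the inputs, beside 0.18 over all features. Of the 2 tested in the IPs, 1 was called higher, beside 0.613% of all features. Among the linker histone H1 genes, 7 were tested in the inputs with 1 called lower, beside 2.04% of all features. The called gene was hil-3 (-2.04 ± 0.19, edgeR adjusted p = 0.00213). The H2A.Z gene htz-1 and the CENP-A genes hcp-3 and cpar-1 were not called in any of the 3 comparisons.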

How the data were processed

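Small RNAs were sequenced from 12 libraries, with 3 IPs and 3 inputs for each strain. Per the labels, reads were trimmed with cutadapt 1.15 and aligned with STAR 2.6.0c, and the builds ce11 and ce10 are both named. The authors deposited raw counts (scaled here to RPM of feature reads) per gene and strand for the 6 inputs. Reads on no feature (4.58% to 6.14%) entered neither the totals nor any test. For the targets of each strain the authors deposited RPM with 0.01 added and the ratio of IP to input. These RPM hold fractions of reads and were not turned into counts.

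Inputs were tested with edgeR 4.0.16 (quasi-likelihood, TMM, filterByExpr), and IPs with limma 3.58.1 (limma-trend on log2(RPM + 1)) over the 4080 features in both tables. The change of IP relative to input was an interaction term fitted to 12 libraries. Calls needed an adjusted p below 0.01 with a log2 fold change above 1 or below -1. Alternatives included DESeq2 1.42.0, other scalings, filters and pseudocounts, batch, replicate blocks and leaving out each library. The scripts were tested on simulated data. R 4.3.3 and Python 3.11.15 were used. IP and input of 1 lysate were paired by the library names in the labels, and their deviations from group means correlated at 0.01 to 0.12.

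The members, gene lists and tests were chosen with earlier results of these data known. Named members are those in a target table, those called in the input, and the 5 highest and 5 lowest in the input (the 4 identical copies at this limit together). Others, such as his-31, his-32, his-40, his-41, his-48 and his-16, were chosen after their values were seen. The gene cid-1, also named cde-1 and pup-1, was matched under the first name after a search by the others had failed. Gene positions are from the Ensembl annotation of WBcel235, matched by WormBase identifier for all 66 members. No sequences are shown.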

Additional observations from a re-analysis of the deposited data

Results flagged for a closer look

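The H4 gene his-60 stood out because its enrichment in the WAGO-4 IP differed between the strains by the interaction test. The change of IP over input was -0.94 on the log2 scale in 3×FG relative to WT (limma, adjusted p = 0.00624), and the IP/input ratio was lower in all 3 3×FG pairs than in any of the 3 WT pairs. The median over the 4080 features tested was -0.67. Of these features, 30.9% were lower at an adjusted p under 0.01 in the same test, and 57.3% had ratios wholly below WT. A decrease of this kind was thus common among all features. WT pairs 1 and 2 set a batch B IP over a batch A input, while all 3×FG pairs lay within batch B. Whether this had a part in the decrease was not tested.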

How the results depend on the processing

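In the inputs, where 0 members were called higher and 1 lower, the higher and lower counts were 1 and 4 with DESeq2, 1 and 2 with batch B libraries alone (1 WT input, assumed to vary like the 3×FG inputs), 2 and 4 with only genes antisense to coding sequence tested, 0 and 2 with batch as a term and 0 and 0 without the filter on low counts. Leaving out 1 library gave 0 to 5 higher and 0 to 4 lower. The upper ends, 5 and 4, came without WT replicate 3, the batch B input, when 3961 and 3078 features were called in place of 187 and 454. Over all features the calls were 987 and 1518 with DESeq2, 660 and 851 with batch as a term, 770 and 896 with batch B alone, 806 and 1260 with antisense rows alone, 433 and 478 without the filter, 248 and 386 by library totals, and as few as 8 and 1 without 3×FG replicate 3. Features tested numbered 60441 with DESeq2, 61129 without the filter and 10882 with antisense rows alone. They numbered 22301 with batch as a term or by library totals, 22122 without WT replicate 3 and 25903 without 3×FG replicate 3. The median of all features moved to 0.35 by library totals and to -0.35 with DESeq2. Replicate numbers of the 2 strains share only a number (correlations of -0.31, -0.02 and -0.25 in the inputs), and with them as a replicate block 0 and 0 members and 0 and 0 features were called. In the IPs, 7 members were called higher with TMM scaling in place of 3, and 2 to 3 with 1 library left out, while TMM scaling called 97 features higher and 531 lower in place of 25 and 803. For IP over input, 1 member was called lower with the lysate as a replicate block and 0 to 4 with 1 library left out, the 4 being without WT replicate 3, and TMM scaling called 84 and 79 features in place of 10 and 983. Of the uncalled changes in IP over input, his-61 (-0.32) turned to 0.35 with TMM scaling and 0.18 with the batch B input for all WT IPs, his-62 (0.05) to -0.26 with that input, and his-63 (-0.11) to 0.57 with TMM scaling, 0.0859 with that input and 0.0927 with a pseudocount of 5 RPM. Leaving out 1 library gave -0.028 to 0.16 for his-62 and -0.30 to 0.19 for his-63. The 3×FG table held 12 members in place of 20 at 10 RPM or more. The H3 over H4 difference of 1.55 became 1.87 with identical copies counted once. It was 2.13 with only the genes that had no copy of equal counts in 3 or more inputs. With 1 library left out it lay between 1.43 and 1.65. The causes were not tested. Of the other 90 alternatives for whole comparisons, each kept its value within the limits set. Depth limited the inputs most in WT replicate 1, where 1 read is 0.482 RPM.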
